A study of Drosophila melanogaster and Drosophila miranda with 8 samples.

Results

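The 2 CLAMP ChIP-seq libraries of female *D. melanogaster* larvae were examined through the peaks that the authors called in each library over its own input. Every peak of both lists was taken, 9080 in replicate 1 and 8792 in replicate 2, which makes 17872 of the 33972 peaks in the 4 lists of the series. The larvae were wild type, female, at the third instar and kept at 21 °C, and chromatin of pooled whole larvae was immunoprecipitated with an antibody to CLAMP. The 2 matching inputs, which saw no antibody, enter only through the peak calls. The other libraries of the series come from wild type female *D. miranda* larvae kept at 18 °C. A whole larva mixes many tissues, so a peak cannot be assigned to a cell type. The labels do not say whether the 2 replicates came from separate chromatin preparations, and the spread between them may be technical.

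CLAMP is a zinc finger protein that binds GA-rich repeats throughout the *Drosophila* genome. In males it links the Male-Specific Lethal (MSL) complex, which raises transcription of X-linked genes, to its sites on the X-chromosome. In females the MSL complex does not assemble, and CLAMP still occupies sites on the X-chromosome and on autosomes. Female larvae therefore show CLAMP binding along the chromosomes without that complex.

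Both lists covered a similar amount of the genome with peaks of different shape. On the arms X, 2L, 2R, 3L, 3R and 4 of dm3 there were 8987 peaks in replicate 1 and 8424 in replicate 2, covering 10.9% and 11.2% of the summed length. The remaining 1.02% and 4.19% of peaks lay on heterochromatic or unplaced sequences and are left out of what follows. No peak was narrower than 1000 bp, and 25.5% of replicate 1 peaks but 4.58% of replicate 2 peaks had exactly that width. Median widths were 1299 and 1514 bp. Each peak carries 1 unnamed value. It was taken as the log2 ratio of ChIP to input reads because 157 of 251 distinct values in replicate 1 and 851 of 1551 in replicate 2 had a partner exactly 1 away (tolerance 1e-06). Fold values depend on this reading. The value had a median of 3.12 in replicate 1, an enrichment of 8.70-fold, and of 2.21 in replicate 2, an enrichment of 4.62-fold. With so few distinct values, many replicate 1 peaks are tied in rank. In replicate 1, 91.1% of the peaks had a fold value that was a whole multiple of 0.512 (tolerance 1e-06). For replicate 2 no such unit was found. Of its most common fold value divided by 2 to 20, the best fit was at the limit of the search, 20. That unit, 0.261, fitted 14.0% of the peaks. With 251 distinct values against 1551, the value moves in coarser steps in replicate 1. This limits every comparison of values, value classes and highest peaks between the lists. Wider peaks had higher values in replicate 1 and lower values in replicate 2 (Spearman's rho across peaks 0.59 and -0.23, given as a description). The lists give no read counts, so the depth behind a peak is not known from them, and for the ChIP library of replicate 2 the read count and the percentage stated in the methods do not match. By either of them, this library had fewer aligned reads than the ChIP library of replicate 1. Contrasts between the replicates in value, width and density carry this imbalance, whose part in them was not tested.

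The X-chromosome carried CLAMP peaks at the same density as most autosomal arms in both replicates. It had 69.9 peaks per Mb in replicate 1 (1568 peaks, exact 95% Poisson interval 66.5 to 73.5) and 70.0 in replicate 2 (1569 peaks, 66.6 to 73.5). Arm 2L had 70.7 per Mb (67.3 to 74.2) and 69.7 (66.4 to 73.2). Arm 2R had 73.7 (70.1 to 77.4) and 70.3 (66.8 to 74.0), and 3L had 72.6 (69.3 to 76.0) and 68.9 (65.7 to 72.3). The intervals of these 4 arms overlap one another in each replicate. They cover counting error only, and peaks of 1 library are not independent replicates.

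Arm 3R stood above the other long arms in replicate 1 and not in replicate 2. It had 84.7 peaks per Mb in replicate 1 (2363 peaks, 81.3 to 88.2), an interval that lies above those of X, 2L, 2R and 3L, and 70.3 in replicate 2 (1960 peaks, 67.2 to 73.5), an interval that overlaps all of them. With 23.2% of the length, 3R held 26.3% of the replicate 1 peaks and 23.3% of the replicate 2 peaks. The mean over replicates was 77.5 ± 10.2 peaks per Mb on 3R (SD, n = 2), against 70.0 ± 0.0315 on X, 70.2 ± 0.646 on 2L, 72.0 ± 2.37 on 2R and 70.8 ± 2.59 on 3L. The excess on 3R is therefore smaller than the difference between its 2 libraries.

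Chromosome 4, the small autosome that is largely packaged as heterochromatin, had the opposite order of replicates. It carried 72.3 peaks per Mb in replicate 1 (93 peaks, 58.4 to 88.6) and 88.7 in replicate 2 (114 peaks, 73.1 to 107), with a mean of 80.5 ± 11.6 (SD, n = 2). The intervals overlap, and the difference between replicates over the whole chromosome was not tested. Its first 1 Mb held 71 and 84 peaks, and no difference was called there (adjusted p = 0.637, exact conditional binomial test on the shares of the lists). In replicate 2 its median log2 value was the highest of the 6 arms, 3.00, compared with 2.09 on 3R, 2.18 on 2R, 2.21 on 3L, 2.27 on X and 2.28 on 2L. In replicate 1 the median was 3.12 on all 6 arms.

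**Figure D1:**
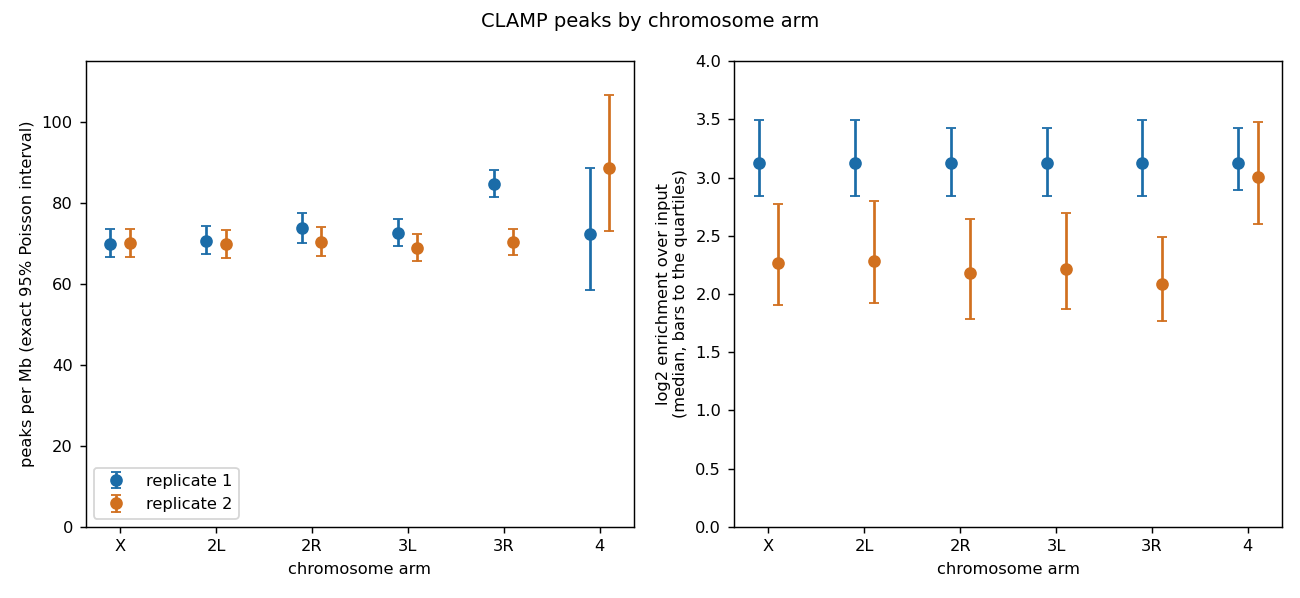
Peaks per Mb with exact 95% Poisson intervals (left) and the median log2 enrichment over input with bars to the quartiles (right) on each chromosome arm, for replicates 1 and 2. The X-chromosome lies at 69.9 and 70.0 peaks per Mb, 3R reaches 84.7 in replicate 1 only, and the replicate 2 enrichment is highest on chromosome 4, at 3.00.

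Peaks thinned out toward the centromere, and more so in replicate 1. In the 2 Mb at the centromere side of X, 2L, 2R, 3L and 3R together, replicate 1 had 54.1 peaks per Mb (541 peaks, 49.6 to 58.9), against 76.7 over the rest of these arms, a ratio of 0.705 (exact 95% interval 0.645 to 0.770). Replicate 2 had 64.8 (59.9 to 70.0) against 71.5, a ratio of 0.906 (0.835 to 0.982). The arms did not share this equally. Replicate 1 had 33.5 peaks per Mb at the centromere side of 3L, 44.5 on X, 50 on 2L and 58.5 on 2R, but 84.0 on 3R, the same as over the rest of 3R. Replicate 2 had 49.0 on 3L and 57.5 on X, and 71.0 to 75 on 3R, 2L and 2R, close to the rest of those arms.

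At the telomere side, the replicates parted. In the 2 Mb there, replicate 1 had 76.2 peaks per Mb, a ratio to the rest of 0.994 (0.921 to 1.07). Replicate 2 had 58.5, a ratio of 0.818 (0.751 to 0.890). It had 50 (40.7 to 60.8) on 2R, 55.5 (45.7 to 66.8) on X and 58.5 (48.4 to 70.1) on 3L. These intervals lie below the 72.2, 72.9 and 71.9 over the rest of the same arms. On 2L it had 60 (49.7 to 71.7) against 70.6, and on 3R 68.5 (57.5 to 81.0) against 70.4. There the interval includes the rest.

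Enrichment values rose toward the centromere in replicate 2, mainly on 2L, 2R and 3L, and were level in replicate 1. Replicate 2 peaks in the 2 Mb at the centromere side had a median log2 value of 2.61, or 6.10-fold, compared with 2.18 over the rest of the arms and 2.04 at the telomere side. By arm, the median at the centromere side was 3.01 on 2L, 2.86 on 2R and 2.85 on 3L. Over the rest of these arms it was 2.26, 2.14 and 2.20. On X it was 2.38 against 2.30 over the rest, and on 3R 2.18 against 2.08. Peaks at the centromere side made up 7.69% of the list and 23.8% of its 500 peaks of highest value. Of those 500, 40 lay at the centromere side of 2L, 31 of 2R, 29 of 3L, 12 of X and 7 of 3R. In replicate 1, whose values move in coarser steps, the median was 3.12 in each of the 3 parts. There the centromere side held 6.02% of the list and 6.8% of the highest 500.

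To follow the landscape at a finer scale, peaks were counted in 120 windows of 1 Mb. A window held 4 to 105 peaks in replicate 1 (median 76) and 13 to 91 in replicate 2 (median 71). Each window was compared with all others of the same list by an exact conditional binomial test with Benjamini-Hochberg adjustment over the 120 windows, which measures counting error only. The variance of the counts over full windows was 2.28 times their mean in replicate 1 and 1.37 times in replicate 2, where 1 is the value for counting error alone. Replicate 1 was thus the more uneven list.

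In replicate 1, 4 windows were high, 3.33% of those tested, and all 4 lay on 3R. They held 105 peaks (3R, 4000001 to 5000000, adjusted p = 0.0135 by the exact binomial test), 104 (26000001 to 27000000), 103 (21000001 to 22000000) and 101 (5000001 to 6000000). The same windows held 64, 72, 69 and 88 peaks in replicate 2, where none was called. In replicate 2, no window was high after adjustment (0% of those tested), and 4 were at an unadjusted p under 0.05 by the same exact binomial test.

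Low windows were more frequent in replicate 1 and 6 of its 8 lay in the last 3 Mb or less before the centromere end. Replicate 1 had 8 low windows, 6.67% of those tested, with 3 on 2L, 2 each on X and 3L and 1 on 2R. Replicate 2 had 3, or 2.5%, with 1 each on X, 2R and 3L. Both lists shared 2 of them, 25% of those of replicate 1 and 66.7% of those of replicate 2. The last window of 3L, from 24000001 to 24534929, held 4 peaks in replicate 1 and 13 in replicate 2, or 7.48 and 24.3 per Mb (adjusted p = 1.21e-10 and 9.58e-04 by the exact binomial test). The X window from 21000001 to 22000000 held 47 and 43 (adjusted p = 0.0126 and 0.0447 by the same exact test). Both lie at the centromere end of their arms. The low window that replicate 2 alone showed was the opposite end of an arm, on 2R from 20000001 to 21000000, with 44 peaks against 83 in replicate 1.

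By the mean of the ranks in both lists, the window with the most peaks was that on 3R from 5000001 to 6000000, with 101 and 88. It was followed by 3R from 20000001 to 21000000, with 93 and 81, and by X from 17000001 to 18000000, with 95 and 80. The fewest were in the last window of 3L, in the X window from 21000001 to 22000000, and on 3L from 23000001 to 24000000, with 28 and 59. Of these 3 low windows, the first pair were called low in both lists, and the last was called low in replicate 1 and not in replicate 2.

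**Figure D2:**
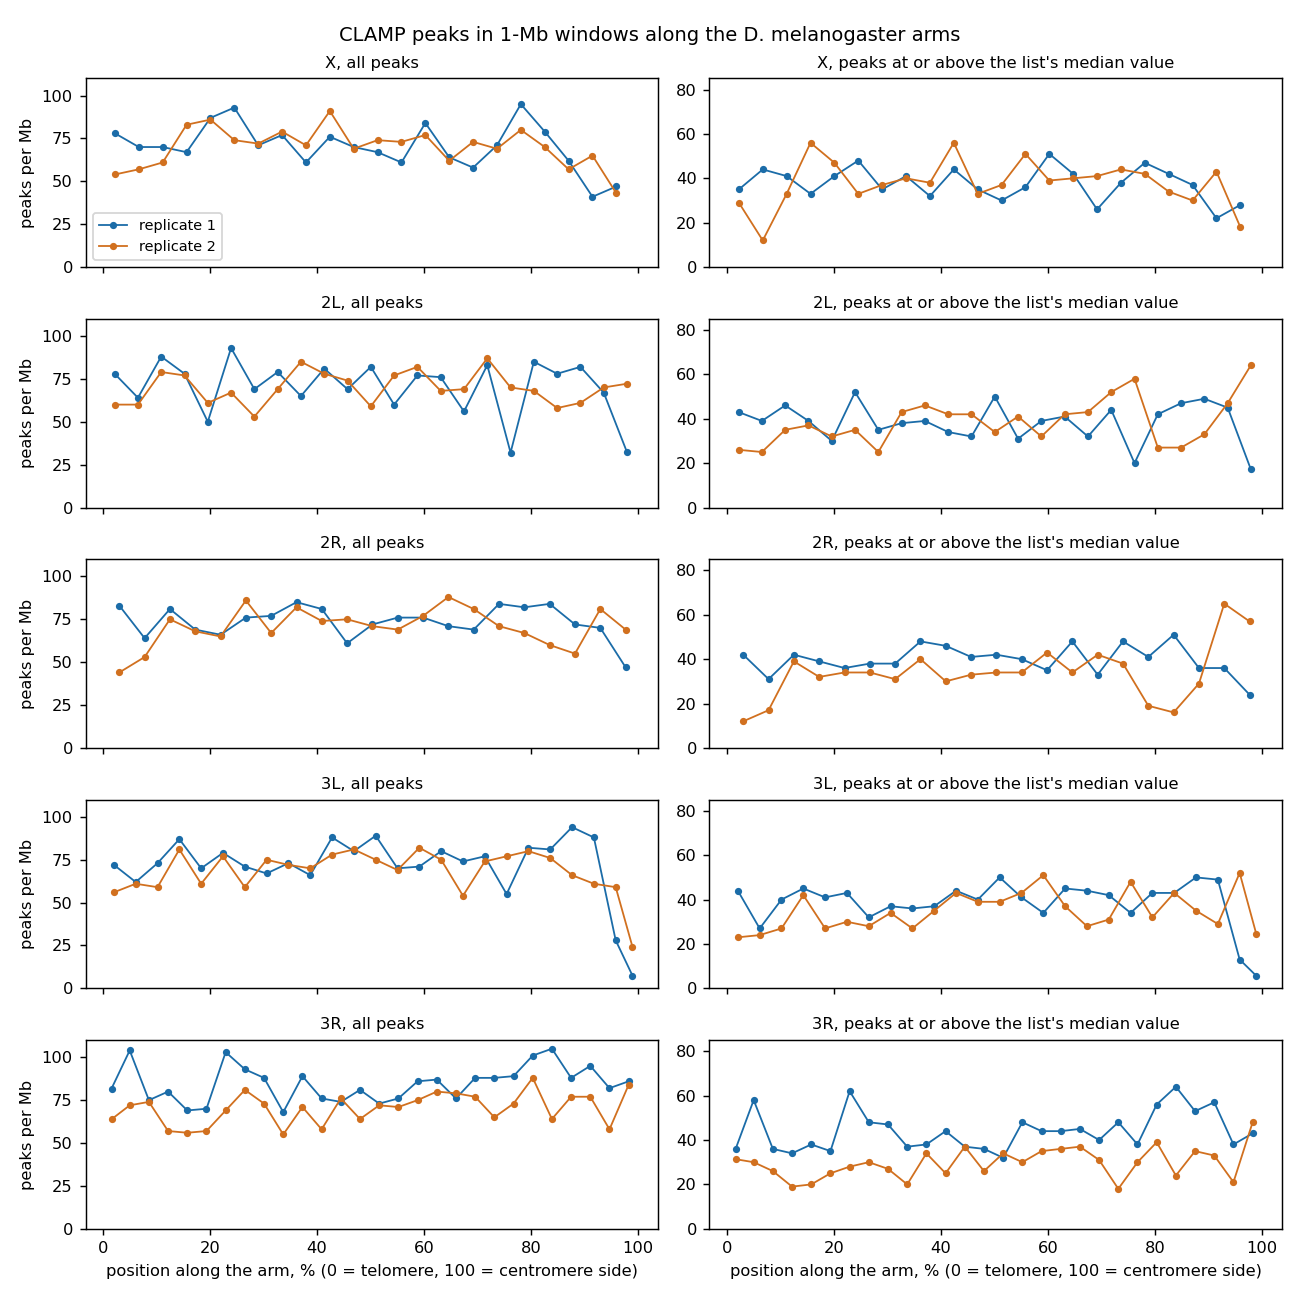
Peaks per Mb in 1-Mb windows along the 5 long arms against the position on the arm in percent, from the telomere (0) to the centromere side (100), for all peaks (left) and for peaks at or above the median value of each list (right). With all peaks both lines fall at the centromere end of X and 3L, and with the higher-value peaks the lines of the replicates separate at the centromere end of 2L, 2R and 3L.

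The replicates differed from each other in 3 windows, 2.5% of the 120 tested (exact conditional binomial test on the shares of the 2 lists, Benjamini-Hochberg adjusted; 11 windows had an unadjusted p under 0.05). All 3 held a larger share of the replicate 2 list. The last window of 2L, from 22000001 to 22983954, held 32 peaks in replicate 1 and 71 in replicate 2, a share 2.37 times as large (adjusted p = 0.00243 by the exact test). The 2L window from 17000001 to 18000000 held 32 and 70, a ratio of 2.34 (adjusted p = 0.00243 by the exact test). The 3L window from 23000001 to 24000000 held 28 and 59, a ratio of 2.25 (adjusted p = 0.0137 by the exact test). Each was called low in replicate 1 and was not called in replicate 2. Counts on 2R from 20000001 to 21000000, 83 and 44, and on 3R from 4000001 to 5000000, 105 and 64, were next and did not pass (adjusted p = 0.0722 and 0.167 by the exact test). Windows of 0.5 Mb gave no call of a difference.

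Over the 120 windows, the counts of the replicates had a Pearson correlation of 0.397 and a Spearman correlation of 0.272. These are descriptions with no test, since windows share the same libraries and the same mappable sequence. The relation was uneven between arms, with Pearson values of 0.712 on 3L (25 windows), 0.504 on X (22 windows) and 0.467 on 3R (28 windows), but 0.050 on 2L (23 windows) and -0.028 on 2R (21 windows). Without the windows shorter than 1 Mb, among them the last of 3L, Pearson's r was 0.257, and without the 2 Mb at the centromere side of each arm it was 0.209. The Spearman correlation moved little, to 0.253 and 0.245.

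**Figure D3:**
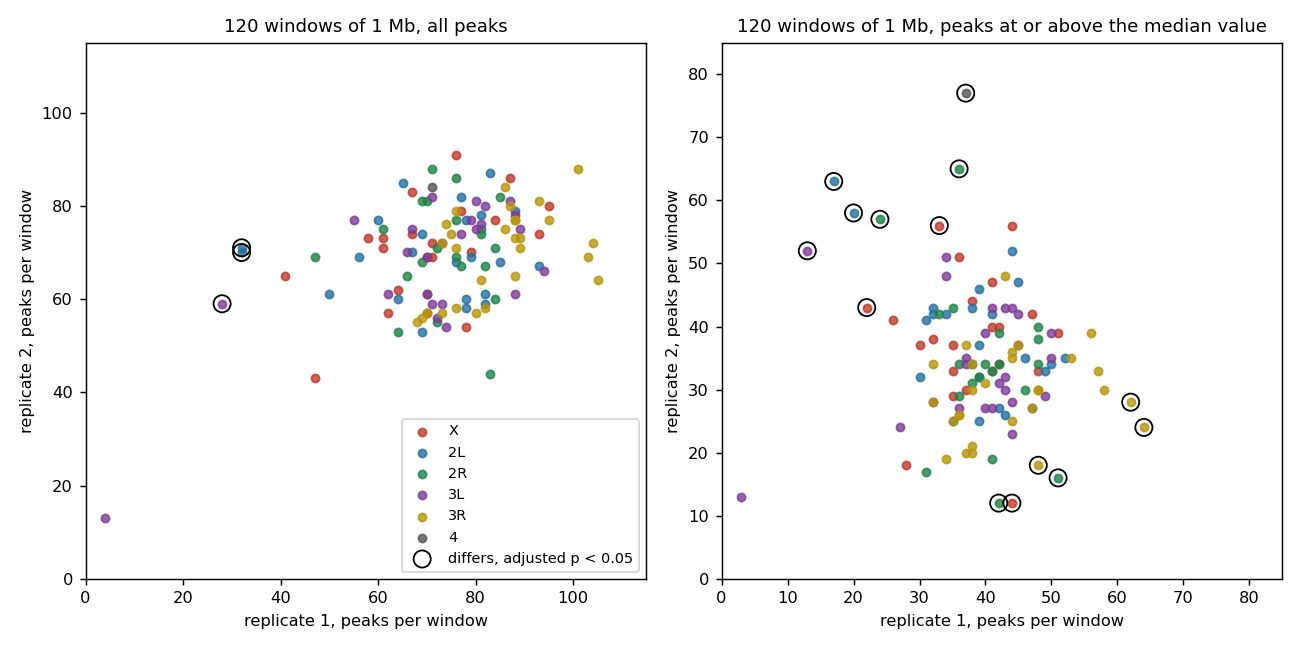
Peaks per 1-Mb window in replicate 1 (horizontal) and replicate 2 (vertical), colored by arm, for all peaks (left) and for peaks at or above the median value of each list (right), with a ring around windows that differ between replicates at an adjusted p under 0.05. The left panel has 3 rings and an isolated 3L window of 4 and 13 peaks, and the right panel has 14 rings on both sides of the cloud.

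Agreement along the arms was lost among the peaks with higher enrichment. The peaks at or above the median value of each list numbered 4800 in replicate 1 and 4251 in replicate 2. Their counts over the 120 windows had a Pearson correlation of -0.18 and a Spearman correlation of -0.13. By arm, Pearson's r was -0.561 on 2L, -0.377 on 2R, -0.007 on X, 0.152 on 3L and 0.158 on 3R.

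With these peaks, 14 windows differed between replicates, 11.7% of those tested, by the same exact binomial test and adjustment, and 22 did so unadjusted. The larger share was in replicate 2 in 8 of the 14. Those with the smallest adjusted p were the last window of 2L, with 17 peaks in replicate 1 and 63 in replicate 2 (8.03e-07, exact test), 3L from 23000001 to 24000000 with 13 and 52 (3.53e-06, exact test), and 2L from 17000001 to 18000000 with 20 and 58 (4.18e-05, exact test). These are the 3 windows that differed with all peaks. The higher-value peaks are a subset of the same lists, chosen by a value that varied along the arms in replicate 2. The recurrence of these windows is therefore not a separate observation. Next came the single window of chromosome 4, with 37 and 77 peaks (3.61e-04, exact test), and the first window at the centromere end of 2R, with 24 and 57 (6.60e-04, exact test).

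Windows with more of the higher-value peaks in replicate 1 lay elsewhere. Among them were X from 1000001 to 2000000 with 44 and 12 peaks, 2R from 20000001 to 21000000 with 42 and 12, 2R from 3000001 to 4000000 with 51 and 16, and 3R from 4000001 to 5000000 with 64 and 24. The first pair of these lie within 2 Mb of the telomere end. Against the rest of their own list, 2 windows were high (1.67%) and 4 low (3.33%) in replicate 1, while 9 were high (7.5%) and 8 low (6.67%) in replicate 2. The 4 low windows of replicate 1 were also low with all peaks, which include these. With all peaks replicate 2 had no high window, so its 9 could not have been high there.

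The parts of the arms restate this contrast and are not a separate observation. These peaks were chosen by value, and replicate 2 values were already higher at the centromere side, mainly of 2L, 2R and 3L, and on chromosome 4. Relative to the rest of the 5 long arms, the density of these higher-value peaks at the centromere side was 0.696 in replicate 1 (exact 95% interval 0.615 to 0.785) and 1.27 in replicate 2 (1.15 to 1.41). At the telomere side it was 0.979 (0.881 to 1.08) and 0.665 (0.580 to 0.760). On chromosome 4, replicate 2 had 81.7 of them per Mb (66.8 to 98.9), 92.1% of its peaks there, and replicate 1 had 36.6. On 3R it was 29.6 (27.6 to 31.7) in replicate 2 and 44.2 in replicate 1. The windows with the highest median log2 value in replicate 2 were the last of 2L (3.38), the last of 3L (3.23) and the neighboring 3L window (3.08). They were among the windows with the fewest peaks in replicate 1, with 32, 4 and 28. Over the 120 windows, the density in replicate 1 and the median value in replicate 2 had a Pearson correlation of -0.607 and a Spearman correlation of -0.362, a description over windows that share position along the arm. The median values of the replicates had correlations of 0.112 and -0.004.

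Most peaks of each list had no peak of the other list at the same place. A peak of the other replicate overlapped, by at least 1 bp, 25.7% of replicate 1 peaks (exact 95% binomial interval 24.8 to 26.6) and 27.4% of replicate 2 peaks (26.4 to 28.3). Some overlap arises wherever peaks are placed, since the lists cover 10.9% and 11.2% of the length. The share from placement alone was not computed, so these shares by themselves do not show an excess. They also vary with the width of the peaks and the density of the other list. The share was similar on the long arms, 24.0% to 28.1% in replicate 1 and 25.5% to 28.9% in replicate 2. On chromosome 4 it was 36.6% (26.8 to 47.2) and 30.7%. At the telomere side it was lower, 16.5% (14.0 to 19.4) in replicate 1 and 21.9% (18.6 to 25.5) in replicate 2, against 26.3% (25.3 to 27.3) and 28.1% (27.1 to 29.2) over the rest of the arms. For replicate 1 peaks, the other list was sparser there, at 58.5 peaks per Mb against 71.5 over the rest. For replicate 2 peaks, it had 76.2 against 76.7. At the centromere side the overlapped share was 28.1% (24.3 to 32.1) in replicate 1 and 23.1% (19.95 to 26.6) in replicate 2, the latter also below the rest. The bases common to both lists were 2.24 Mb of a union of 24.4 Mb, or 9.19%.

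Width was the property that went with overlap in the same way in both lists. In replicate 1 the overlapped share was 20.2% for peaks of exactly 1000 bp, 22.5% for wider peaks under 1500 bp, 27.0% from there to under 2000 bp and 42.9% at 2000 bp or more. In replicate 2 it was 18.9%, 22.9%, 27.2% and 44.4%. A wider peak has more length to be met by any peak, and how much of the increase this accounts for was not tested.

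Value went with overlap differently in the 2 lists. In replicate 1 the uppermost of 10 classes by value had the largest share, 37.9% (34.7 to 41.2), among classes of over 100 peaks, followed by the lowest class, 30.6%. In replicate 2 the uppermost class had 24.0% (21.1 to 27.1) and the lowest 30.0%. Width differs between these classes, with medians of 2149 bp in the uppermost class of replicate 1 and 1209 bp in that of replicate 2. Within a width class, the order of the uppermost class and the other peaks was mixed. Among replicate 1 peaks of 2000 bp or more, the uppermost class had 40.1% (36.6 to 43.6) and the others 48.7% (43.6 to 53.8). Its shares were 30.8% against 22.3% in the class above 1000 and under 1500 bp, and 21.5% against 27.4% in the next. In replicate 2 the uppermost class had 52.6% (44.9 to 60.3) against 43.1% (40.0 to 46.2) at 2000 bp or more, with intervals that overlap. It was lower in each of the narrower classes, with 15.7% (9.97 to 23.0) against 20.6% (15.8 to 26.2) at 1000 bp, where the intervals also overlap. Under 1500 bp it had 17.1% (13.9 to 20.8) against 23.8% (22.3 to 25.3). Under 2000 bp it had 16.9% (10.8 to 24.7) against 27.6% (26.0 to 29.3).

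**Figure D4:**
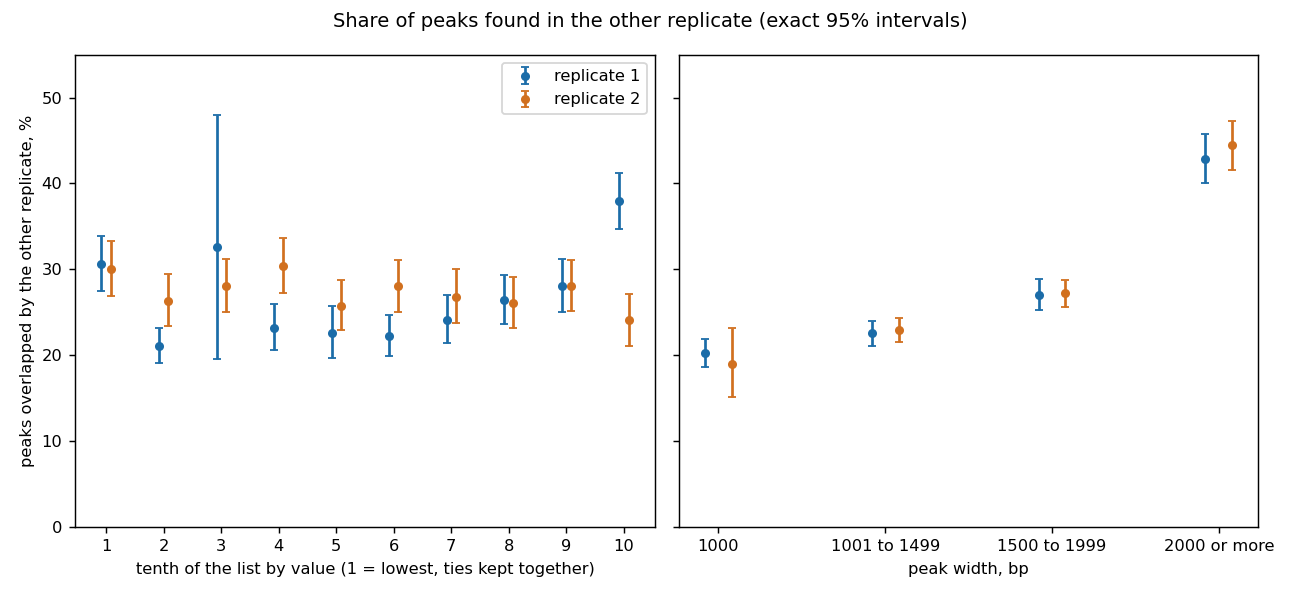
Share of peaks overlapped by a peak of the other replicate, in percent with exact 95% binomial intervals, by class of value (left, from lowest to highest, ties kept together) and by peak width in bp (right). The share rises with width in both replicates, to 42.9% and 44.4% at 2000 bp or more, while the uppermost value class reaches 37.9% in replicate 1 and 24.0% in replicate 2.

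The highest peaks of the lists were seldom the same. Of the 100 peaks of highest value on the arms, 64 in replicate 1 met a peak of replicate 2 (exact 95% interval 53.8% to 73.4%), and 10 in replicate 2 met a peak of replicate 1 (4.90% to 17.6%). By overlap of at least 1 bp, 3 were in common. Among these was a 3R pair that shared only 97 bp, so it is not the same site by position. Of the highest 500, 44.2% and 22.8% were overlapped, and of the highest 1000, 36.7% and 24.5%. The highest 100 of replicate 1 were all at least 2000 bp wide, with a median of 2917.5 bp, whereas those of replicate 2 had a median of 1041 bp and 10 reached 2000 bp. By arm, X, 2L, 2R, 3L, 3R and 4 held 22, 18, 13, 23, 23 and 1 of the highest 100 in replicate 1 and 22, 29, 14, 24, 7 and 4 in replicate 2. X held 17.4% and 18.6% of all peaks in the lists.

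Where peaks did overlap, their heights were almost unrelated. There were 2392 overlapping pairs, with a median overlap of 925.5 bp and a median distance between centers of 614 bp. Spearman's rho over the pairs was 0.056 for the value and 0.135 for the width, given as descriptions. The centers lay within 200 bp of each other in 459 pairs, or 19.2%.

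Beyond overlap as such, the distance between centers shows how closely the lists align. Within 0.2 kb of a replicate 1 center, replicate 2 centers occurred at 0.127 per kb, 1.77 times the 0.0717 per kb found at 20 to 50 kb. The excess was 1.39 times at 0.2 to 0.5 kb and 1.15 times at 0.5 to 1 kb, and the density was level beyond that, at 0.969 to 1.02 times. Alignment was thus limited to less than 1 kb. Within 0.2 kb the density was above that at 20 to 50 kb on each of the 6 arms, from 1.5 times on 2R to 2.04 on X and 2.08 on chromosome 4, where it rests on 7 pairs.

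The excess of near centers was larger for peaks of high value, in either list. From the 995 replicate 1 peaks at or above the 90th percentile, replicate 2 centers within 0.2 kb were 3.33 times as dense as at 20 to 50 kb, and from the 908 such peaks of replicate 2 the figure was 2.45. Among peaks at or above the median value in both lists it was 2.18. Within a list, no centers lay closer than 1 kb, which the minimum width and the lack of overlap within a list enforce. From 1 to 2 kb the density was 0.592 and 0.469 times that at 20 to 50 kb, and from 2 to 5 kb it was 1.03 and 1.08 times. Because peaks of a list do not overlap, their widths also limit how many centers can lie 1 to 2 kb apart. The low density there is therefore not read as a spacing of sites. From 2 to 5 kb the density of neighbors was slightly above that at 20 to 50 kb.

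**Figure D5:**
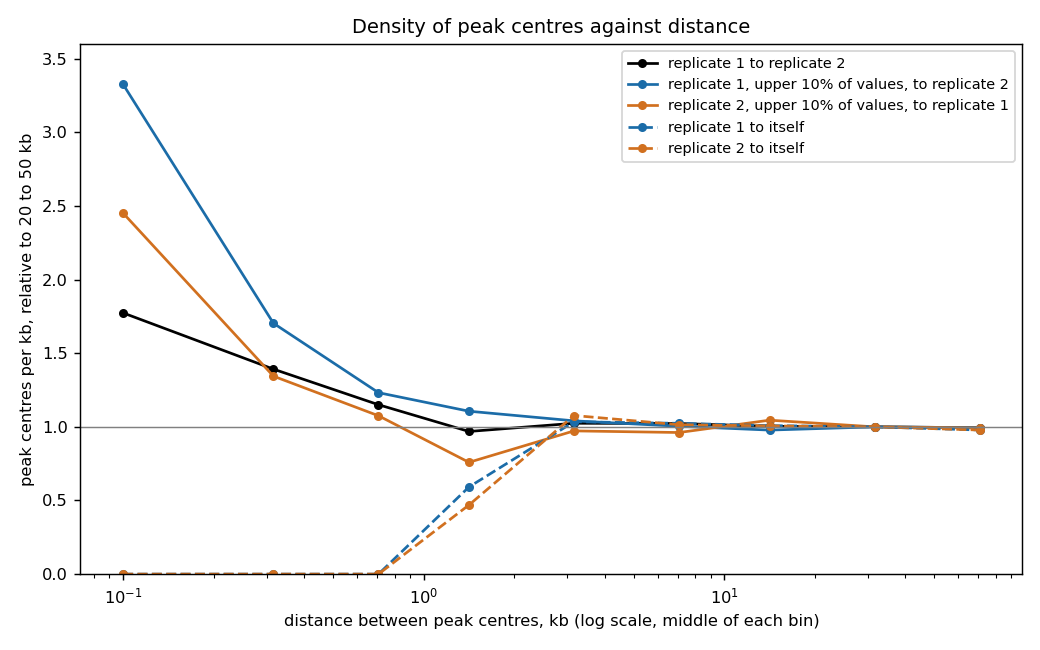
Density of peak centers against the distance between centers in kb (log axis), relative to the density at 20 to 50 kb, between the replicates (solid lines) and within each list (dashed lines). The line between replicates starts at 1.77 within 0.2 kb and reaches 1 beyond 1 kb, and the lines from peaks at or above the 90th percentile of value start at 3.33 and 2.45.

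Long stretches without a CLAMP peak were more frequent in replicate 1, and those common to both lists lay toward the centromere. Stretches of at least 100 kb with no peak numbered 24 in replicate 1, 4.30 Mb in all, and 10 in replicate 2, 1.49 Mb in all. Both lists had 7 in common, 1.08 Mb in all, of which 2 were on X, 3 on 3L and 1 each on 2L and 2R, and 3R and chromosome 4 had none. The longest was on X from 21464973 to 21682727 (217.8 kb), in the X window that was low in both lists. The next were on 2R from 2169523 to 2349517 (180.0 kb) and on 3L from 24355113 to 24529078 (174.0 kb). Only uniquely aligned reads were kept, so sequence that is repeated or absent from the assembly yields no peak, and its part in these stretches was not tested.

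Other stretches were empty in 1 list only. The X stretch from 20625308 to 20855286 had no peak in replicate 1 and 14 in replicate 2, and the 2L stretches from 17164252 to 17330829 and from 17725088 to 17873881 had 10 each in replicate 2. The last pair lie within the 2L window that differed between the replicates. The longest empty stretch of replicate 1, on 3L from 24114098 to 24529078 (415.0 kb), had 4 peaks in replicate 2. In the other direction, the 3L stretch from 1502810 to 1672787 had no peak in replicate 2 and 7 in replicate 1, and the 2L stretches from 15621234 to 15738959 and from 4449486 to 4551120 had 3 each in replicate 1.

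On each arm, the overlapping pair with the best mean rank of value was taken as a named site. On 3L the peaks ran from 12601504 to 12603739 with a log2 value of 4.84 in replicate 1, and from 12601508 to 12603716 with 5.07 in replicate 2. On 2R they ran from 3187362 to 3189456 (5.80) and from 3187367 to 3189491 (4.32). On 2L they ran from 7529532 to 7532043 (6.10) and from 7529504 to 7532003 (4.11). The boundaries on these arms differed by less than 50 bp, which is far below the width of the peaks. On X they ran from 3570729 to 3572839 (4.71) and from 3570226 to 3573383 (4.89), the replicate 1 peak lying inside that of replicate 2. On chromosome 4 they ran from 1283418 to 1285492 (4.79) and from 1283535 to 1285611 (3.97). The pair on 3R, from 5137541 to 5140577 (4.68) and from 5136589 to 5137637 (4.97), shared only 97 bp, and its centers lay 1946 bp apart, so it is not 1 site by position. These coordinates are on dm3. No gene annotation of that build was used, so the genes at these sites are not named.

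The *D. miranda* lists also had a positive correlation of counts along the chromosomes. Over 137 windows of 1 Mb, Pearson's r was 0.306 and Spearman's rho 0.205, compared with 0.397 and 0.272 here. The *D. melanogaster* Pearson value was 0.257 with full windows only, and no such setting is given for *D. miranda*. Overlapped shares were 37.5% of 3577 and 10.9% of 12523 peaks. These lists are of very unequal length, so correlations and shares are set beside those of *D. melanogaster* without a test.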

How the data were processed

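CLAMP ChIP-seq reads were aligned by the authors to dm3 (for *D. miranda* to a published assembly) with unique alignments only. The submitters' processing notes name Bowtie, and its version is not given in the sources used here. The authors removed positions with anomalous tag counts, scaled counts of tags to library size, and ran SPP at default settings on each replicate over its input. For its own analysis the paper kept peaks that overlapped between replicates, whereas each list is taken whole here. The deposited value per peak is not named in the lists and is read as log2 of the ChIP to input ratio from its spacing. Starts were read as 0-based and printed 1-based.

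The length of an arm was taken up to its last peak, whichever list held it. On dm3 the centromere lies at the high end of X, 2L and 3L and the low end of 2R and 3R. A last window under 0.5 Mb was left out. Windows were tested by two-sided exact conditional binomial tests with Benjamini-Hochberg adjustment (called at 0.05), and intervals are exact 95% Poisson or binomial intervals. These measure counting error only, since peaks of 1 list are not independent replicates. Peaks on heterochromatic and unplaced sequences (93 and 368) were left out. The window tests were run on simulated counts that varied by counting error alone. Counts in both lists varied more than that, so the simulation does not cover the excess. Named windows were the 3 highest and 3 lowest by mean rank and the 5 with the smallest adjusted p for a difference, and further windows are those called. Named stretches were the 3 longest common ones, and named peaks the overlapping pair of best mean rank on each arm. Other stretches, and the higher-value windows, were chosen after their values were seen. Members and lists were chosen with earlier results of these data known. Alternatives were windows of 0.1, 0.5 and 2 Mb, bases covered, higher-value peaks, arm ends of 1 Mb, no centromere sides, stricter overlap and each replicate alone. Classes of width were fixed in bp because ties at 1000 bp prevent equal classes. Python 3.11.15, numpy 2.4.6, pandas 2.3.3, scipy 1.17.1 and matplotlib 3.10.9 were used.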

Additional observations from a re-analysis of the deposited data

Results flagged for a closer look

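Peaks on heterochromatic or unplaced sequences were not used in any comparison, and no peak list of an input was analysed here to set them against. There were 93 in replicate 1 and 368 in replicate 2. Their median log2 value was 3.12 in replicate 1, the same as on the arms, and 4.65 in replicate 2, compared with 2.21 on the arms.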

How the results depend on the processing

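With either replicate left out, which leaves the value of the other, densities per arm ranged from 69.9 to 70.0 peaks per Mb on X, 69.7 to 70.7 on 2L, 70.3 to 73.7 on 2R, 68.9 to 72.6 on 3L, 70.3 to 84.7 on 3R and 72.3 to 88.7 on chromosome 4. With 1 Mb at each end in place of 2, the centromere side ratio of replicate 1 moved from 0.705 to 0.549. With windows of 0.5 Mb, high windows of replicate 1 went from 4 to 0 and windows that differed between replicates from 3 to 0. These windows hold fewer peaks each. With the peaks at or above the median value, high and low windows went from 4 to 2 and from 8 to 4 in replicate 1, and from 0 to 9 and from 3 to 8 in replicate 2, and windows that differed went from 3 to 14. The Pearson correlation over windows, 0.397, was 0.210 with windows of 0.1 Mb and 0.209 without the 2 Mb at the centromere side, and turned to -0.18 with the higher-value peaks, as did the Spearman correlation, from 0.272 to -0.13. Full windows only gave 0.257, a setting added once the data had been seen. The cause was not tested. The overlapped shares, 25.7% and 27.4%, were 12.7% and 13.6% with a reciprocal overlap of 50%, 5.11% and 5.45% with centers within 200 bp, and 14.1% and 15.9% with the higher-value peaks. The last setting leaves fewer peaks to be met. No paired analysis was possible because the inputs have no peak lists here, so no comparison was made between groups that share replicate numbers.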
